A study of Bos taurus with 3 samples.

Results

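Genes whose level in the library at -7 d stood apart from both the library at -35 d and the library at +3 d were taken from the mammary tissue of cows around parturition. A gene was a member when its level at -7 d was at least 2-fold, a distance of 1 on the log2 scale, above both other libraries or below both other libraries. Tag counts of these same 3 libraries chose the members, so the distances that follow are descriptions and were not tested. Of 9154 genes with tags in any library, 7491 had at least 20 tags summed over the libraries, and 1663 with fewer were not considered. The level at -7 d lay above both others for 181 of the 7491 genes (2.42%) and below both others for 288 (3.84%), so 469 genes were members and 7022 were not.

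All 18 animals were Holstein cows of the same age in their second parity, and mammary biopsies of 6 cows were taken about 35 d before parturition, of 6 other cows about 7 d before it, and of 6 more cows 3 d after it. The labels name no treatment, and stage is what sets the groups apart. Samples within a group were combined for RNA isolation, and each pool gave 1 library, with 5914422 (-35 d), 5593237 (-7 d) and 5845821 (+3 d) clean tags. Since each time point has 1 pooled library, no spread among cows was measured, and each difference compares libraries rather than conditions. Both ratios of a gene use the same count at -7 d, so its counting error and whatever set that pool apart enter both of them together.

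Mammary tissue before calving holds epithelium that grows into alveoli, in a matrix of collagens and fibrils made by fibroblasts, with vessels, myoepithelium, fat and resident leucocytes. Dividing cells pass through the S phase, in which DNA is copied, and mitosis, in which the spindle parts the chromosomes, and most mitotic transcripts are made anew for each division. Lactogenesis begins before parturition with the first milk proteins and enzymes of milk fat, while colostrum forms and antibodies are carried into it, and copious milk follows around parturition. Genes of the milk proteins themselves were mostly not members: of 23 with at least 20 tags, 16 were higher at -7 d than at -35 d, but only 4 were higher at -7 d than at +3 d. Luminal epithelium was present in every library, with 4 markers of it in full as examples. EPCAM, an adhesion protein of epithelial cells, had 2944, 1639 and 1229 tags at -35 d, -7 d and +3 d, KRT8 had 1754, 878 and 957, KRT7 had 2071, 1382 and 1382, and ELF5, a transcription factor of alveolar cells, had 1604, 1974 and 907.

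What the sequencer read were tags of 21 bases, the cleavage site CATG of the enzyme NlaIII and the 17 bases after it, and a few tags chosen for many copies (A1, A2, B1, B2) or for the largest distance (A3, B3) are shown as the molecules behind the counts. The capitals mark the NlaIII site. These lay above both other libraries.
Tag A1: CATGattaaatctctccttcg
Tag A2: CATGgatgatttcagaaatgt
Tag A3: CATGgatgatgctgctgcctg
Tag A1 had 3282, 14875 and 3510 copies at -35 d, -7 d and +3 d, and tag A2 had 2935, 14836 and 698 copies. Tag A3 stood farthest from both libraries among tags with over 3 copies in each, with 17, 234 and 5 copies. In each of these 3 tags the pool at -7 d gave more copies than the other pools together.
These lay below both.
Tag B1: CATGgtgtatggatacaatgc
Tag B2: CATGgtaacacccttctaaac
Tag B3: CATGagccaaaattcacttcg
Tag B1 had 4915, 1576 and 7844 copies and tag B2 had 4584, 198 and 481. Tag B3, the farthest below among tags with over 3 copies in each library, had 583, 22 and 786. Tag B2 was high at -35 d alone and only 1.52 on the log2 scale lower at -7 d than at +3 d, whereas B3 was high in both outer libraries. No transcripts to place these tags on genes were used here, so they carry no gene names.

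By the same rule, 2307 of the 62102 distinct tags with at least 20 copies lay above both libraries at -7 d (3.71%), and 3841 lay below both (6.18%). In order of time, the tags above made up 1.32%, 3.997% and 0.936% of each library. The tags below made up 3.13%, 0.739% and 2.52%. At the level of genes, the 181 members above took 0.373%, 1.37% and 0.268% of each library, and the 288 members below 0.736%, 0.235% and 0.674%.

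Scaled by the TMM method, which equalises the bulk of the genes, and given as TPM, the tags of a gene relative to all clean tags of its library, the median gene at -7 d differed by -0.03 on the log2 scale from the mean of the other libraries, with quartiles of -0.45 and 0.33. Members above had medians of 27, 66 and 14 tags at -35 d, -7 d and +3 d, and a median smaller distance, from whichever library was nearer, of 1.41. Members below had medians of 35.5, 9 and 25 tags and a median smaller distance of -1.35. Most members stood not far past the limit, since 111 above and 174 below had a smaller distance under 1.5, and 26 above and 53 below had one of at least 2.

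**Figure D1:**
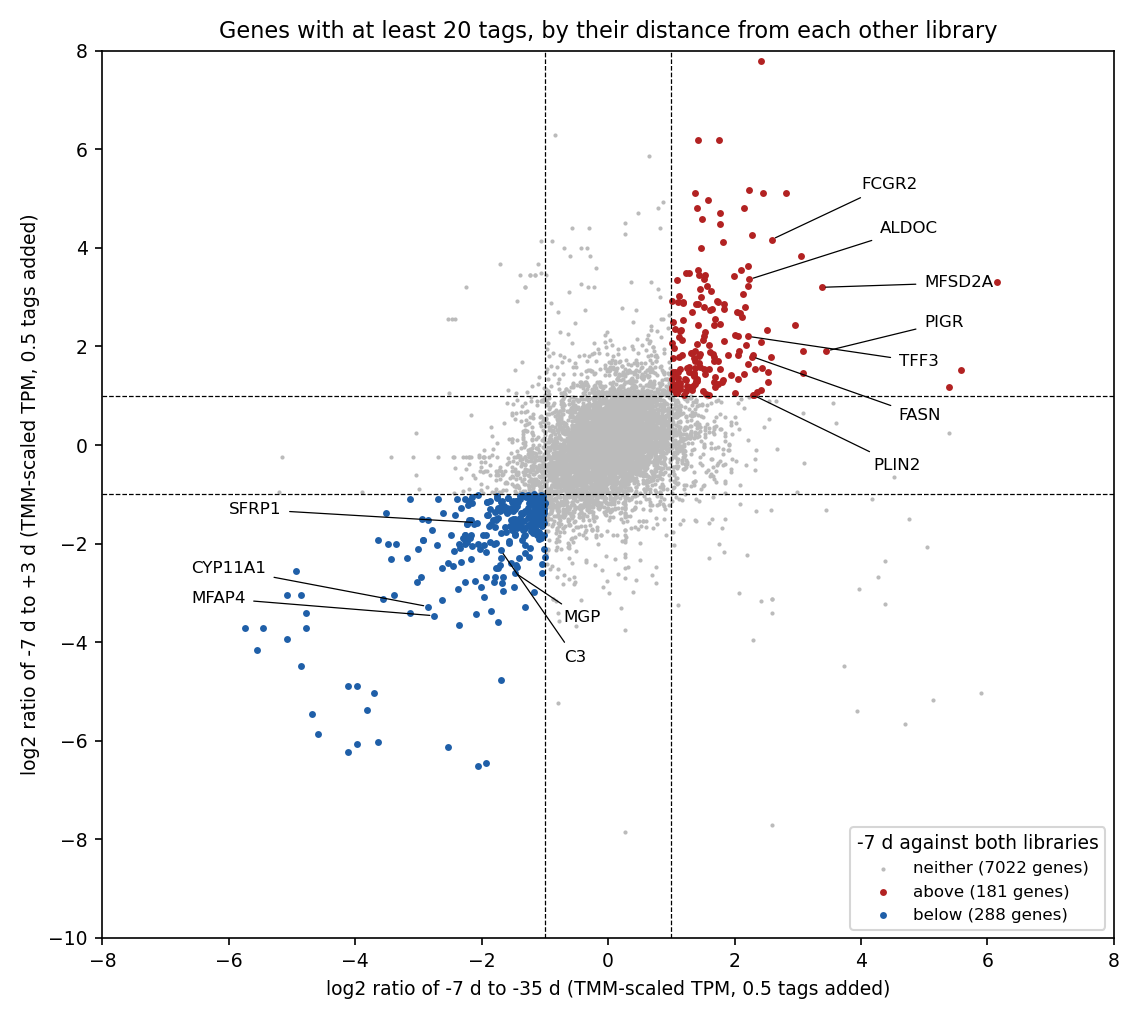
Each point is a gene with at least 20 tags, with the log2 ratio of its level at -7 d to -35 d on the horizontal axis and to +3 d on the vertical axis, both TMM-scaled with 0.5 tags added. Dashed lines mark the distance of 1, the 181 red genes fill the upper right corner, the 288 blue genes the lower left corner, and 7022 grey genes lie elsewhere.

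The outer libraries were not alike for all members. Among members above, the level at +3 d was within 1 on the log2 scale of that at -35 d for 114, lower by at least 1 for 55 and higher by at least 1 for 12, and the median ratio of +3 d to -35 d was -0.31. For members below the outer libraries were more alike, with 232 within 1, 28 lower and 28 higher, and a median ratio of 0.08. The median of this ratio over all genes with at least 20 tags was -0.03. Under the same rule the library at -35 d stood apart for 224 genes above and 268 below, and the library at +3 d for 323 above and 354 below.

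Counting error weighed more on members below. The exact 95% counting intervals of both ratios excluded 0 for 169 of 181 members above and for 196 of 288 below, and lay wholly past 1 for 61 and 43. Members below had a median of 9 tags at -7 d. In the ratio to the nearer library, the median share of counting variance that came from the library at -7 d was 73.7%, against 28.6% for members above. The 20 members below with 0 tags at -7 d have no such share and are left out of it. These intervals cover counting error only and hold nothing of the spread among cows or pools.

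Genes of mitosis were the largest group above. Of 67 genes of the mitotic spindle, the kinetochore and the cyclins with at least 20 tags, 43 (64.2%) lay above both libraries and none below, against 2.42% and 3.84% of all genes, and 64 of the 67 were over the mean of the other libraries, with a median log2 ratio of 1.62. With a 3-fold limit 12 of the 67 lay above both. By edgeR's exact test 11 did, at a false discovery rate (FDR) of at most 0.05, with replicates taken to vary by 0.2 of their mean. That spread was assumed, not measured, and the test used the same counts that chose the members. Its counts, here and for later lists, are a stricter cut and not evidence of a difference between stages. The list was lower after parturition than before, since 58 of 67 were lower at +3 d than at -35 d with a median of -1.20. Of the 24 not above both, 17 were at least 1 above +3 d but less than 1 above -35 d.

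The motor of mitotic entry is the kinase CDK1 with cyclin B. CDK1 had 27, 57 and 7 tags at -35 d, -7 d and +3 d, and its log2 ratio was 1.33 to -35 d (counting interval 0.66 to 2.07) and 2.69 to +3 d (1.65 to 4.16). CCNB1, cyclin B1, had 29, 59 and 4 tags. Its level at +3 d was the lowest, and that at -35 d lay between. CCNA2, cyclin A2, had 52, 93 and 10 tags, in the same order of libraries.

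Kinases of the spindle checkpoint and of chromosome alignment followed the same order. BUB1, a checkpoint kinase, had 23, 66 and 2 tags, with log2 ratios of 1.77 (1.09 to 2.54) to -35 d and 4.49 (2.89 to 7.88) to +3 d. AURKB, aurora kinase B, had 38, 98 and 9 tags, and BIRC5, survivin, its partner in the chromosomal passenger complex, had 81, 226 and 25. CDCA8, borealin of the same complex, had 51, 90 and 7 tags. All 4 were highest at -7 d and lowest at +3 d.

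Of 9 kinesins of the KIF family with at least 20 tags, 5 lay above both (KIF20A, KIF22, KIF2C, KIF4A and KIFC1) and none below. The shares of all genes were 2.42% above and 3.84% below. KIF20A, a motor of cytokinesis, had 48, 122 and 15 tags, and TPX2, which helps to nucleate spindle microtubules, had 36, 85 and 16. The condensin subunits NCAPG, NCAPH and SMC4, which compact chromosomes, had 57, 99 and 16 tags, 48, 86 and 30 tags, and 17, 48 and 12 tags. Ubiquitin carriers and activators of the anaphase-promoting complex were UBE2C, with 47, 123 and 15 tags, and CDC20, with 34, 64 and 12. Among mitotic members the most tags were in CDCA7, a cell cycle gene that MYC controls, with 222, 534 and 91 tags, and in GTSE1, expressed in G2, with 129, 311 and 97. GTSE1 differed from most of the list in that its levels in the outer libraries were close, at 18.6 and 19.99 TPM, with 54.1 TPM at -7 d.

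Some mitotic genes of equal standing were not members. AURKA, aurora kinase A, had 40, 52 and 10 tags, PLK1, polo-like kinase 1, had 37, 49 and 17, and STMN1, stathmin, had 642, 881 and 197. Each was at least 1 on the log2 scale above +3 d, but its distance from -35 d was between 0.65 and 0.73. CKS1B, a subunit of cyclin-dependent kinases, had 51, 16 and 14 tags and was not high at -7 d.

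**Figure D2:**
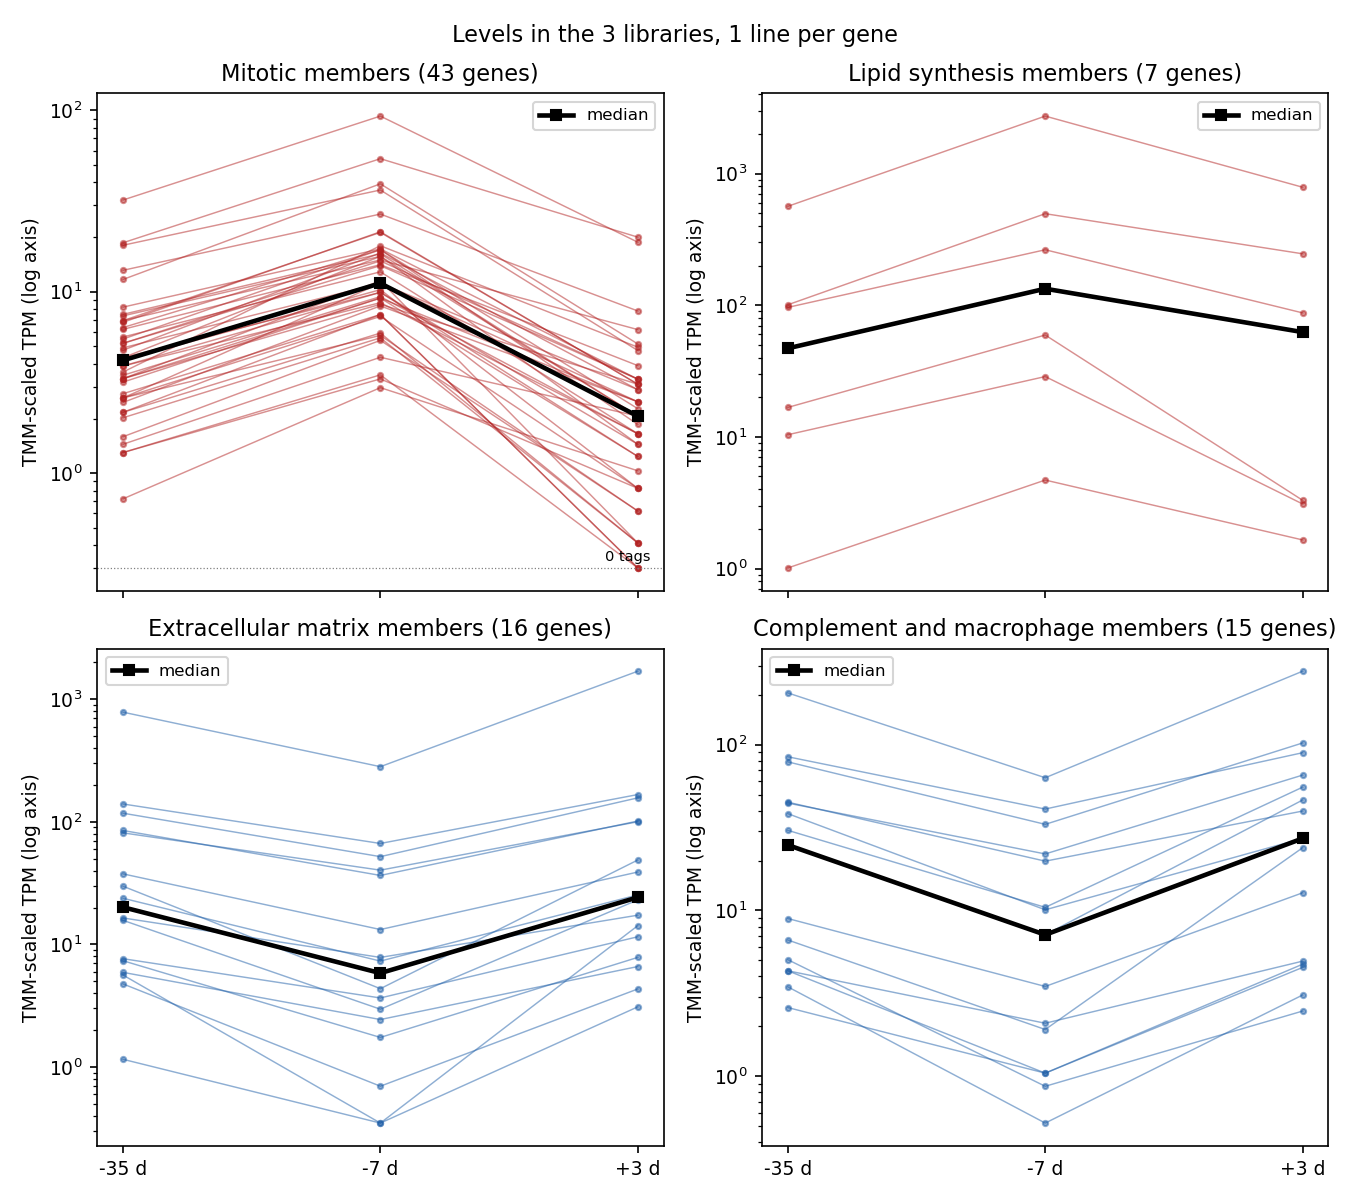
Lines join the TMM-scaled TPM (log axis) of each member at -35 d, -7 d and +3 d for 43 mitotic, 7 lipid synthesis, 16 extracellular matrix and 15 complement or macrophage genes, and black squares are medians. The median mitotic member was at 4.18, 11.1 and 2.06 TPM, and the median matrix member at 20.1, 5.83 and 24.2 TPM; genes with 0 tags are drawn at the dotted line.

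Genes of DNA replication were less often members than those of mitosis. Of 49 with at least 20 tags, 6 (12.2%) lay above both and none below, against 2.42% and 3.84% of all genes. The median log2 ratio to the mean was 0.73, and 42 were over 0. With the 3-fold limit 1 lay above both, and 2 by the exact test. Only 9 of the 49 were at least 1 above -35 d, while 24 were at least 1 above +3 d. Whether the lists differ was not tested.

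Among the 6 members were CDC45, GINS1, RAD54L, CHAF1A and UHRF1. CDC45 and GINS1, parts of the replicative helicase, had 94, 212 and 51 tags and 100, 178 and 63 tags. RAD54L, which acts in repair by homologous recombination, had 52, 155 and 19 tags. UHRF1, which carries DNA methylation through replication, had 119, 232 and 17 tags, with log2 ratios of 1.23 (0.91 to 1.56) and 3.49 (2.82 to 4.33). The MCM subunits of the helicase were not among them: MCM4 had 294, 435 and 62 tags, MCM7 had 409, 351 and 219, and PCNA, the sliding clamp, had 406, 483 and 137.

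A further 8 members outside the lists act in division or DNA repair, a grouping made after their values were seen. CHEK1, the checkpoint kinase that answers stalled replication, had 17, 62 and 4 tags, with log2 ratios of 2.11 (1.34 to 3.00) and 3.55 (2.28 to 5.63). RECQL4 and WRN, RecQ helicases, had 13, 44 and 3 tags and 31, 53 and 11 tags, and WEE1, the kinase that holds CDK1 inactive, had 39, 66 and 25. All 8 were lower at +3 d than at -35 d.

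Some genes of milk fat synthesis were also members above, and FASN and PLIN2 were the most abundant of them. Of 42 genes of fatty acid and triacylglycerol synthesis with at least 20 tags, 5 (11.9%) lay above both and none below. The shares of all genes were 2.42% and 3.84%. The list median of 0.33 was close to the upper quartile of all genes, 0.33. With the 3-fold limit 2 lay above both, and 2 by the exact test. FASN, the fatty acid synthase that builds the short and medium chains of milk fat, had 3906, 15686 and 3817 tags, or 563, 2729 and 787 TPM. Its outer libraries were alike in tags, and its log2 ratios were 2.28 (2.23 to 2.33) and 1.79 (1.74 to 1.85). THRSP, a regulator of lipogenesis, had 116, 341 and 16 tags and log2 ratios of 1.82 (1.52 to 2.14) and 4.13 (3.45 to 4.99).

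DGAT2, which adds the last acyl chain to triacylglycerol, had 72, 165 and 15 tags and was also lowest at +3 d. PLIN2, the coat of lipid droplets and milk fat globules, had 698, 2847 and 1192 tags, and stood 1.01 (0.91 to 1.11) above +3 d, at the edge of the rule. FADS2, a desaturase, had only 7, 27 and 8 tags, with a counting interval to +3 d of 0.33 to 2.86. The members therefore differ in what came after parturition, since PLIN2 was higher and THRSP and DGAT2 were lower at +3 d than at -35 d.

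Other lipogenic genes were higher than at -35 d but not 2-fold above +3 d. SCD, the stearoyl-CoA desaturase, had 442, 4454 and 2757 tags, SREBF1, the lipogenic transcription factor, had 343, 824 and 538, and FABP3, a fatty acid carrier, had 9, 259 and 915. DGAT1, which acts at the same step as DGAT2, had 86, 220 and 226 tags, so it was higher than at -35 d in both later libraries. Of the 42 genes, 8 were at least 1 above -35 d without being so above +3 d, and 4 the reverse.

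In cholesterol synthesis 2 of 23 genes (8.70%) lay above both, against 2.42% of all genes, with a list median of 0.59. SQLE, squalene epoxidase, had 667, 1515 and 424 tags, with log2 ratios of 1.45 (1.32 to 1.59) and 1.59 (1.44 to 1.75). HSD17B7, an enzyme of the later pathway, had 326, 767 and 303 tags. Of 34 genes of one-carbon, serine and amino acid synthesis, 3 lay above (8.82%) and 1 below (2.94%), against 2.42% and 3.84% of all genes. PHGDH, the first enzyme of serine synthesis, had 113, 246 and 28 tags, CTPS, which makes CTP for nucleic acids and phospholipids, had 119, 413 and 75, and MTHFD1L, of mitochondrial folate metabolism, had 50, 84 and 31.

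A group of 6 members above, put together after their values were seen, are mucosal or antibacterial proteins. Among them are PIGR, TFF3, RNASE2, PGLYRP1 and BPI. PIGR, the receptor that carries polymeric IgA and IgM across epithelium, had 855, 7772 and 1748 tags, or 123, 1352 and 360 TPM. It was the only milk protein gene above both libraries, with log2 ratios of 3.45 (3.35 to 3.56) and 1.91 (1.83 to 1.98). FCGR2, annotated as a low affinity IgG Fc receptor, is a member above that is not in this group. It had 3015, 15031 and 705 tags, and its log2 ratios were 2.59 (2.53 to 2.65) and 4.17 (4.06 to 4.28). At -7 d only FASN among members above exceeded its 2615 TPM, and FCGR2 was lowest at +3 d. Whether all of these tags are particular to this gene was not tested.

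TFF3, a trefoil peptide of mucous surfaces, had 1481, 5693 and 1042 tags, or 214, 990.5 and 215 TPM, with log2 ratios of 2.21 to each side. RNASE2, a secreted ribonuclease, had 15, 616 and 182 tags, higher in both later libraries. PGLYRP1, which binds bacterial peptidoglycan, had 78, 180 and 9 tags, and BPI, a bactericidal protein, had 7, 26 and 3. PGLYRP1 is also in the neutrophil marker list, of which S100A8 and S100A9 had 48, 22 and 34 tags and 44, 21 and 29 tags; the part of neutrophils in its level was not tested. BLK, a kinase in the list of B cell markers, was just inside the rule with 19, 32 and 12 tags, and that list of 7 genes had a median of 0.00, whose sign turned under other scalings. The neutrophil list had PGLYRP1 as its 1 member of 5 genes, and the list of haemoglobin and erythrocytes had none of 2, beside 2.42% of all genes above both.

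Some members above carry nutrients across membranes. MFSD2A, a carrier of lysophosphatidylcholine, stood farthest from both libraries among genes over 3 tags in each, with 33, 288 and 26 tags, and its log2 ratios were 3.38 (2.87 to 3.96) and 3.2 (2.64 to 3.86). SLC6A14, which takes up neutral and cationic amino acids, had 53, 205 and 18 tags, SLC13A2, a citrate and dicarboxylate carrier, had 51, 151 and 29, and SLC5A6, the carrier of biotin and pantothenate, had 59, 128 and 33. Of 125 solute carrier genes with at least 20 tags, a family looked up after the values were seen, 4 lay above both and 11 below, where the shares of all genes are 2.42% and 3.84%.

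Metabolic members outside the lists included ALDOC, an aldolase of glycolysis, with 472, 1842 and 151 tags and log2 ratios of 2.23 (2.09 to 2.38) and 3.36 (3.12 to 3.61). MOSC1, a molybdenum enzyme of the mitochondrial membrane, had 796, 1997 and 832 tags. PCCB, of propionate use, had 183, 392 and 124 tags, and ECHDC1, which clears ethylmalonyl-CoA, had 485, 1044 and 371. ACOX2, a peroxisomal oxidase of branched chains, had 203, 421 and 97, and TSTD1, of the thiosulfate sulfurtransferase family, had 767, 1829 and 335. The respiratory chain gave 1 member above of 63 genes, NDUFC2 with 33, 64 and 21 tags, and the proteasome none of 38, beside 2.42% of all genes.

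Secreted signals above both libraries were CHRDL2, a chordin-like antagonist of BMP, with 13, 92 and 5 tags, and the Wnt modulators RSPO1 and WIF1. RSPO1, an R-spondin that strengthens Wnt signals, had 29, 130 and 0 tags, so it was 5.41-fold higher than at -35 d and at least 36.6-fold higher than at +3 d, taking a floor of 3 tags per library. WIF1, an inhibitor of Wnt ligands, had 3, 20 and 0 tags. KIT, the receptor of stem cell factor, had 304, 667 and 229 tags, and MSTN, myostatin, had 30, 54 and 16. RNA-binding proteins included YBX2, with 24, 116 and 19 tags, and KHDRBS3, with 115, 510 and 101. YDJC, a deacetylase-like protein, had 32, 117 and 16 tags, and the uncharacterised LOC100196900 had 25, 102 and 4. No member above had 0 tags in both other libraries, and 2 had 0 at -35 d (TMEM126A, with 0, 29 and 2 tags, and TMEM88B, with 0, 17 and 6).

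**Figure D3:**
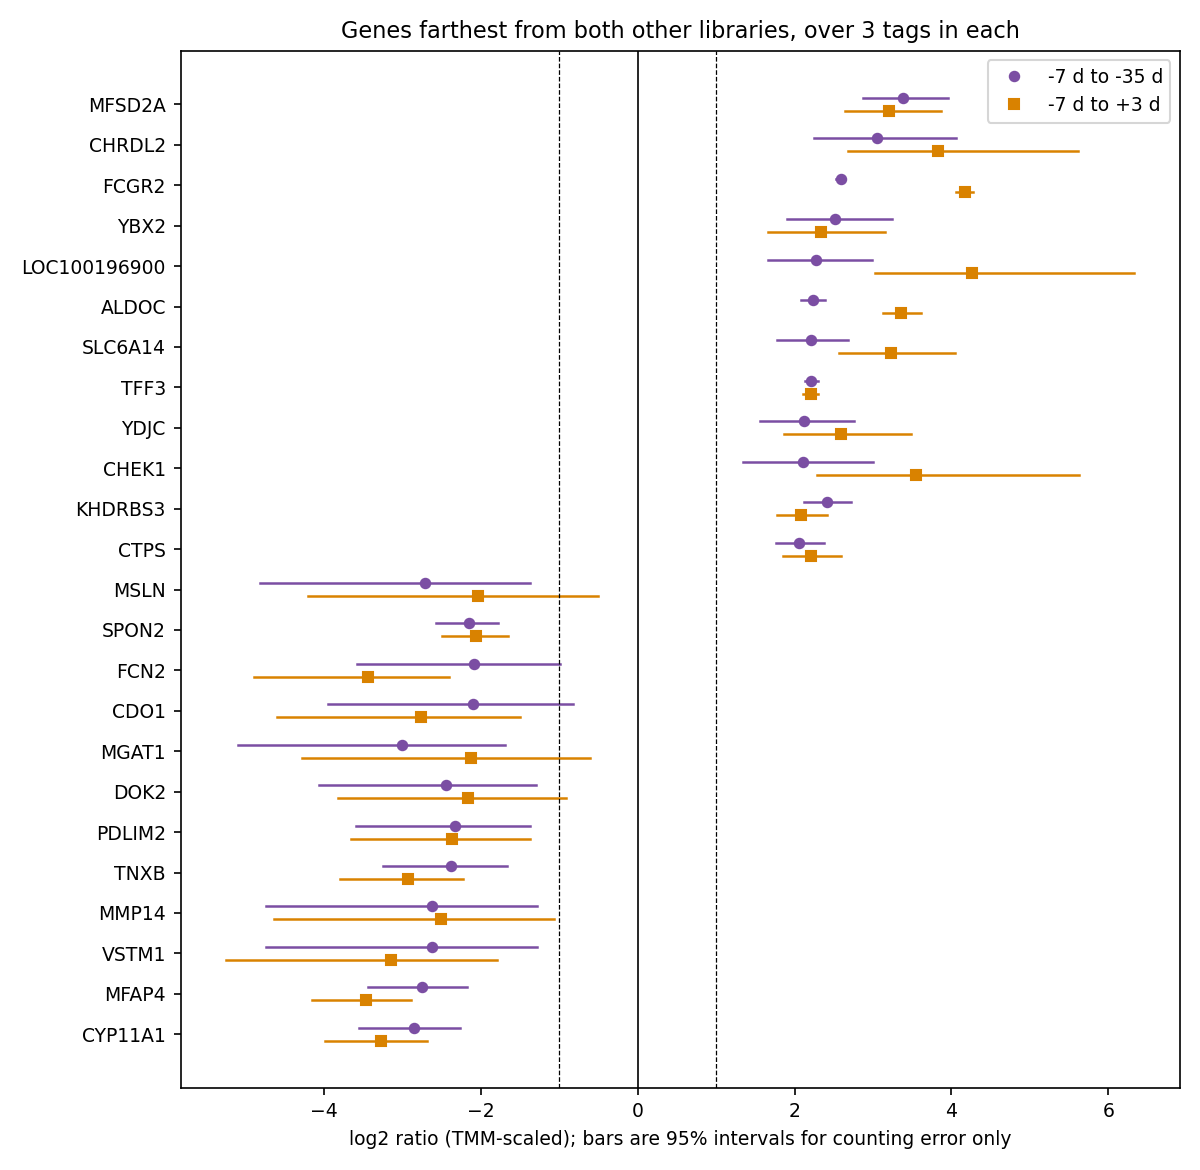
Points are log2 ratios of the level at -7 d to -35 d (circles) and to +3 d (squares) for the 12 genes farthest above and the 12 farthest below both libraries with over 3 tags in each, and bars are 95% counting intervals. FCGR2 and TFF3 have narrow bars, while MMP14, VSTM1, MGAT1 and MSLN, with 4 tags at -7 d, have wide ones; dashed lines mark the distance of 1.

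Among the lists, the extracellular matrix had the most members below, while the macrophage list had the largest share. Of 66 genes of the matrix and its proteases with at least 20 tags, 16 (24.2%) lay below both libraries and none above, against 3.84% and 2.42% of all genes. None of the 66 was over the mean of the other libraries, and the median log2 ratio was -1.10. With the 3-fold limit 6 lay below both, and 8 by the exact test. On the TMM-scaled level the list was also higher after parturition, since only 9 of 66 were lower at +3 d than at -35 d, with a median ratio of 0.71. The TMM factors, 1.17 at -35 d and 0.830 at +3 d, raise each such ratio. At -7 d, 41 were at least 1 lower than at +3 d, against 21 that were so relative to -35 d. In bulk tissue, fewer cells of a type and less RNA per cell cannot be told apart.

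MGP, matrix Gla protein, an inhibitor of calcification, had the most tags, 5450, 1622 and 8238, or 786, 282 and 1698 TPM. Its log2 ratios were -1.48 (-1.559 to -1.398) to -35 d and -2.59 (-2.67 to -2.51) to +3 d. BGN, the proteoglycan biglycan, had 971, 383 and 811 tags, PCOLCE, which helps to trim procollagen, had 816, 299 and 762, and COL6A2, a chain of collagen VI, had 590, 210 and 493. On the scaled level all 4 were highest at +3 d, although BGN, PCOLCE and COL6A2 had the most tags at -35 d.

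Some less abundant matrix genes stood farther. MFAP4 had 207, 25 and 237 tags, with log2 ratios of -2.75 (-3.44 to -2.18) and -3.46 (-4.15 to -2.89), and TNXB, a tenascin of the dermis and muscle, had 109, 17 and 112. FBN1, fibrillin 1, had 165, 42 and 123 tags. Thrombospondins gave 2 members of 4 genes, THBS2 with 51, 10 and 38 tags and THBS4 with 39, 2 and 69. Among all genes, 3.84% lay below both. The ratio of THBS4 to +3 d, -5.04, had a counting interval of -8.43 to -3.44 because it rests on 2 tags.

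Proteases of the matrix were MMP2, gelatinase A, with 261, 76 and 189 tags, its membrane activator MMP14 with 33, 4 and 21, and MMP19 with 114, 45 and 84. Their levels were close in the outer libraries, at 37.6 and 39.0 TPM for MMP2. ITGB5, an integrin subunit, had 564, 232 and 486 tags, TNC, tenascin C, had 53, 21 and 56, and LAMC1, a laminin chain, had 41, 14 and 32. COMP had only 8, 2 and 15, and its interval to -35 d, -5.00 to 0.60, included 0.

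The abundant fibrillar collagens were not members. COL1A1 had 14031, 11588 and 19069 tags, COL3A1 had 14282, 10232 and 13969, and COL1A2 had 6667, 3617 and 9442. FN1, fibronectin, had 2043, 1617 and 2792 tags, and SPARC had 10598, 10787 and 24615. On the scaled level SPARC was lowest at -35 d, and the other 4 were lowest at -7 d but by less than 2-fold relative to -35 d. A further 15 members outside the list are matrix or adhesion proteins, among them SPON2, spondin 2, with 346, 64 and 226 tags, CHI3L1, a chitinase-like secreted protein, with 370, 27 and 93, COL17A1, a collagen of the hemidesmosome, with 545, 176 and 393, and MSLN, mesothelin, with 35, 4 and 15.

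Other cell types of the stroma were read from their markers. The list of smooth muscle and myoepithelium had 1 member below of 17 (5.88%, against 3.84% of all genes), LMOD1 with 179, 69 and 219 tags. Its median was -1.20, with a summed level of 1421, 1279 and 3269 TPM at -35 d, -7 d and +3 d. The sum was highest at +3 d and differed little between the earlier libraries. Endothelium had no member of 15, with a sum of 353, 441 and 741 TPM, and adipocytes none of 9, with 369, 302 and 720. The part of these cell types in the matrix levels was not tested.

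Complement, coagulation and acute phase genes gave 9 members below of 38 (23.7%) and none above, against 3.84% and 2.42% of all genes. The list median was -0.82. With the 3-fold limit 4 lay below both, and 3 by the exact test. C3, the central component of complement, had 1423, 363 and 1346 tags, or 205, 63.2 and 277 TPM, with log2 ratios of -1.70 (-1.87 to -1.53) and -2.13 (-2.31 to -1.97). C6, of the membrane attack complex, had 30, 6 and 22, and C2 was just inside the rule with 312, 114 and 193.

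Of the acute phase proteins, LBP, which binds lipopolysaccharide, had 172, 41 and 225 tags, and HP, haptoglobin, had 266, 58 and 132. PROS1, the anticoagulant protein S, had 211, 60 and 269 tags, while F3, tissue factor, and F5 had 30, 12 and 24 tags and 24, 3 and 15 tags. The first subunits of complement differed: C1QA had 585, 527 and 738 tags and C1QB 620, 555 and 1148, so neither was below -35 d by the scaled level.

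Macrophage markers accompanied these genes. Of 13 with at least 20 tags, 6 lay below both (46.2%), against 3.84% of all genes. None of the 13 was over the mean of the other libraries, and the list median was -1.09. With the 3-fold limit 1 lay below both, and 0 by the exact test. Its summed level was 767, 456 and 838 TPM. CSF1R, the receptor of macrophage growth factor, had 308, 126 and 318 tags, CD163, a scavenger receptor for haemoglobin, had 46, 11 and 116, VSIG4, a complement receptor, had 62, 20 and 62, and CD68 had 35, 5 and 12. AIF1, with 305, 161 and 223 tags, and MSR1, with 100, 56 and 88, were also lower than in both other libraries but by less than 2-fold. By contrast, 3 of the 13 markers were higher than at -35 d. They were CD14, with 17, 24 and 115 tags, and C1QA and C1QB, given above with complement, at log2 ratios of 0.12 and 0.11. LYZ, lysozyme, with 586, 235 and 434 tags, is in this list and also in those of milk proteins and of antimicrobial factors. The part of macrophage number in the complement levels was not tested.

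T cell markers had 1 member below of 15 (6.67%, against 3.84% of all genes), PRF1, perforin, with 37, 13 and 32 tags. The list had a median of -0.49 and a sum of 304, 229 and 284 TPM. Only 2 of the 15 were over the mean of the other libraries, CD3E, of the T cell receptor complex, with 287, 248 and 213 tags, and CD27 with 214, 138 and 71. CD3G, of the same complex, had 237, 78 and 100 tags, and the kinase LCK had 99, 32 and 52, each more than 2-fold below -35 d but not +3 d. A further 18 members below outside the lists are proteins of leucocytes, with a summed level of 211, 80.9 and 208 TPM. They include MPEG1, perforin-2 of phagocytes, with 806, 285 and 517 tags, TREM2, a receptor of macrophages, with 69, 24 and 47, FCN2, a ficolin, with 38, 7 and 68, VSTM1 with 33, 4 and 33, and DOK2, an adaptor of blood cells, with 42, 6 and 24.

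**Figure D4:**
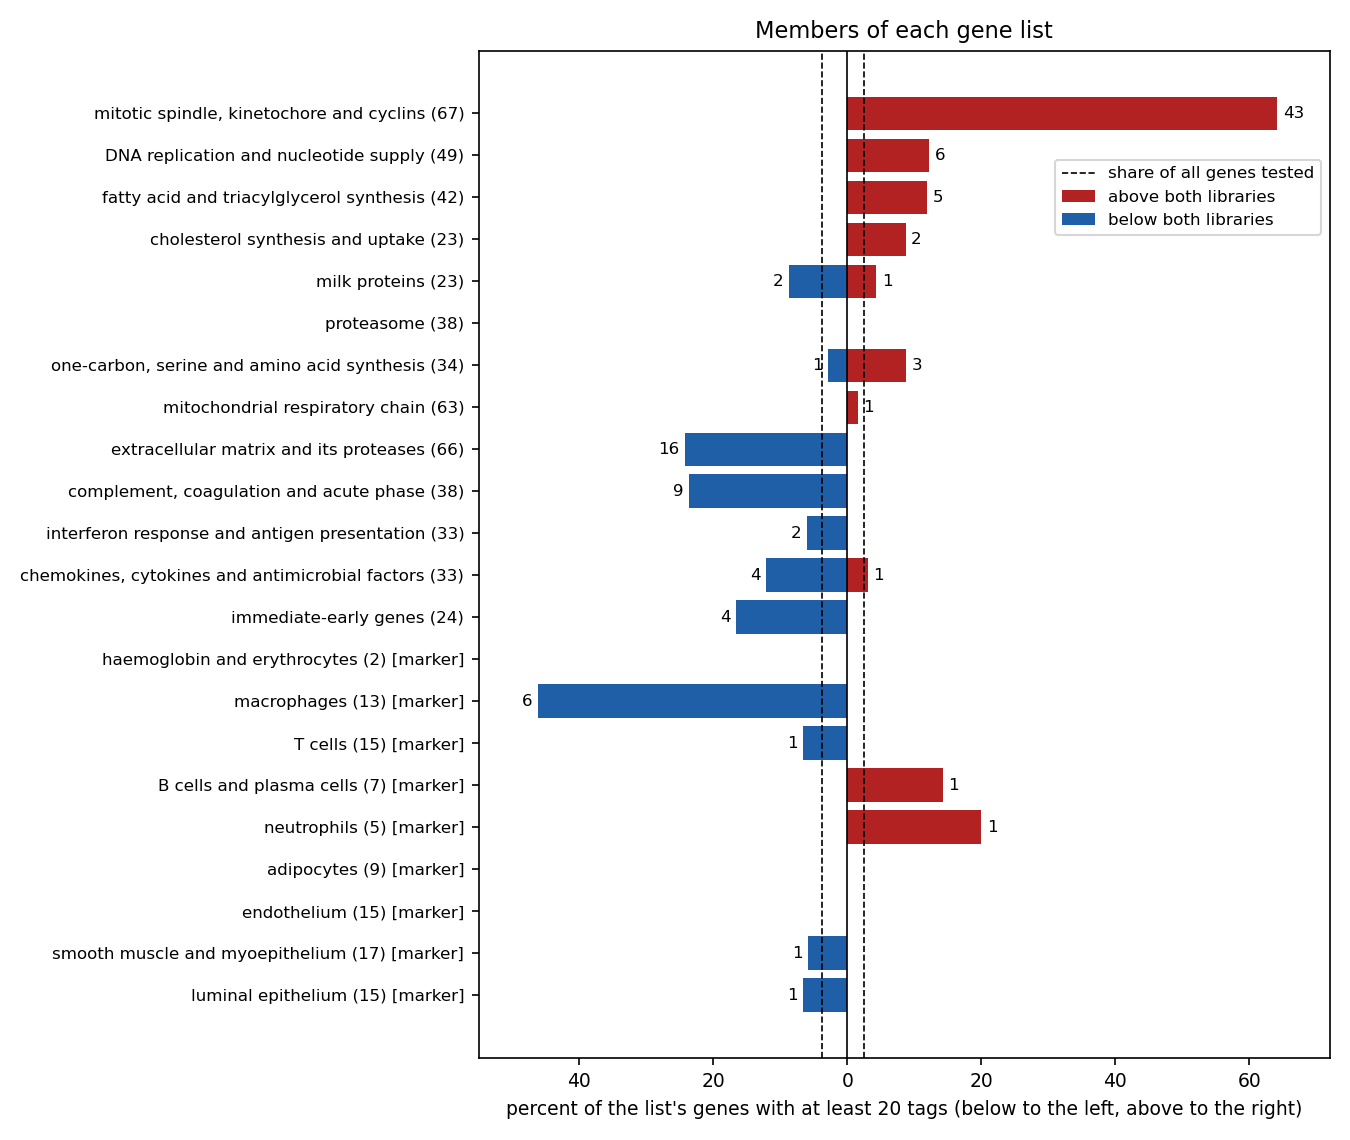
Bars give, for each list, the percent of its genes with at least 20 tags (number in brackets) that lay above both libraries (red, right) or below both (blue, left), and numbers at the bars count the members. Dashed lines mark 2.42% and 3.84% of all genes; the mitotic list reaches 64.2% above, and the macrophage list, of only 13 genes, 46.2% below.

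Chemokines, cytokines and antimicrobial factors had 1 member above of 33 (3.03%), PGLYRP1, and 4 below (12.1%), with a median of -0.56. The shares of all genes are 2.42% above and 3.84% below. CCL19, which draws lymphocytes and dendritic cells, had 45, 17 and 51 tags, IL1RN, the antagonist of interleukin 1, had 44, 12 and 40, and CCL28, a mucosal chemokine, had 17, 0 and 9. The other member below was LYZ, given with the macrophage markers. Interferon response genes had 2 of 33 below (6.06%), IFI6 with 314, 111 and 316 tags and GBP4 with 14, 2 and 14, and a median of -0.41. Immediate-early genes, which respond within minutes to stimuli and to tissue handling, had 4 of 24 below (16.7%). These were JUNB with 132, 43 and 107 tags, KLF6 with 154, 34 and 77, KLF4 with 66, 25 and 65, and ATF3 with 53, 21 and 96. With the 3-fold limit 0 of the 24 lay below both, 0 by edgeR's exact test and 2 by the Audic-Claverie test. FOS had 326, 208 and 334 tags and was not a member, and the part of biopsy handling was not tested.

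Genes of prostaglandins formed a small group below, put together after their values were seen. PTGES, which makes prostaglandin E, had 167, 34 and 215 tags, with log2 ratios of -2.01 (-2.603 to -1.487) and -2.89 (-3.47 to -2.38). PTGS2, the inducible cyclooxygenase, had 21, 6 and 29 tags, and HPGD, which breaks prostaglandins down, had 67, 4 and 14. These are 3 of 13 prostaglandin enzymes with at least 20 tags, where 3.84% of all genes lay below. None of the 13 lay above both, and their median was -0.27. ALOX12E, a lipoxygenase, had 70, 12 and 41 tags.

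Steroid and lipid handling held the gene farthest below among those over 3 tags in every library. CYP11A1, the side-chain cleavage enzyme that begins steroid synthesis, had 213, 24 and 200 tags, or 30.7, 4.18 and 41.2 TPM, with log2 ratios of -2.85 (-3.55 to -2.27) and -3.28 (-3.98 to -2.69). APOD, apolipoprotein D, had 2661, 795 and 2367 tags. CDO1, which oxidises cysteine, had 28, 5 and 31, and the glycosyltransferase MGAT1 had 43, 4 and 16.

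Modulators of growth factors and Wnt were represented by SFRP1, a secreted Wnt inhibitor, with 1078, 211 and 531 tags and log2 ratios of -2.08 (-2.30 to -1.87) and -1.57 (-1.81 to -1.34). NBL1, an antagonist of BMP, had 334, 76 and 196 tags, and GRP, gastrin-releasing peptide, had 800, 192 and 513. All 3 angiopoietin-like genes with at least 20 tags lay below both, ANGPTL1 with 142, 41 and 110 tags, ANGPTL2 with 169, 58 and 138, and ANGPTL4, an inhibitor of lipoprotein lipase, with 95, 28 and 84. This small family was looked up after the values were seen, and 3.84% of all genes lay below both. The secreted Wnt modulators therefore lay on both sides, RSPO1 and WIF1 above and SFRP1 below.

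Of other abundant members below, TXNIP, which binds thioredoxin and limits glucose uptake, had 4922, 1745 and 4574 tags, with log2 ratios of -1.23 (-1.30 to -1.15) and -1.63 (-1.72 to -1.55). QSOX1, a secreted sulfhydryl oxidase also found in milk, had 1072, 351 and 773 tags. PDLIM2, a cytoskeletal adaptor, had 57, 9 and 41 tags, and ELF3, an epithelial transcription factor, had 252, 72 and 149. ELF3 was the only member of the 15 luminal markers (6.67%, against 3.84% of all genes), whose summed level was 2205, 1769 and 1945 TPM.

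At -7 d 20 members below had 0 tags, since genes missing from a library's list were set to 0. SLC34A2, a phosphate carrier of secretory epithelium, had 2, 0 and 38 tags, IGFBP1, a binding protein of insulin-like growth factors, 10, 0 and 31, and SLC14A1, a urea carrier, 14, 0 and 24. SLC25A48 had 32, 0 and 5 tags and MYBPH 9, 0 and 28. With a floor of 3 tags at -7 d, IGFBP1 was at least 12.2-fold and SLC14A1 at least 9.47-fold higher at +3 d, while 2 tags of SLC34A2 at -35 d give no fold on that side. A gene not listed may still have had tags, since the tables list 8363 genes at -7 d and the authors' summary counts 8591.

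The limit of 1 cut through a continuum. Just inside above were BLK, ZBTB43 with 7, 12 and 2 tags, and CDK18 with 40, 77 and 32, and just outside were PSMB10 with 568, 952 and 402, DBI with 421, 862 and 364, and LSM5 with 100, 166 and 66. Just inside below were C2, DDAH2 with 561, 232 and 441, and UBE2L6 with 160, 66 and 126. Just outside below were BOK with 125, 49 and 83, C9orf89 with 20, 8 and 20, and CLU, clusterin, an abundant secreted chaperone, with 28057, 10391 and 17532. CLU missed the rule with log2 ratios of -1.16 and -0.9988.

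By function, 63 of the 181 members above and 45 of the 288 below were in one of the 22 lists. With the groups made after the values were seen, 106 and 126 were in a list or a group, and some of these groups are not described here. The remaining 75 above and 162 below were placed in no list or group. Only provisional symbols are carried by 17 members above and 22 below.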

How the data were processed

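Each of the 3 libraries came from tissue of 6 cows, pooled for RNA isolation. The deposited counts are unambiguous clean tags per gene and copies per distinct tag. The authors dropped tags with 1 copy, matched tags to bovine transcripts with at most 1 mismatch, and divided by the clean tags to give the deposited TPM values. The tables give 2397173, 2314092 and 3097468 tags on genes at -35 d, -7 d and +3 d.

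Gene tables were joined on the gene field, with unlisted genes at 0 tags. TMM factors (edgeR 4.0.16) on clean tag totals were 1.17, 1.03 and 0.830. Log2 ratios had 0.5 tags added, TPM values and folds none. Counting intervals are exact (Clopper-Pearson), at 95%. No test was used as the main result, since each time point has 1 library. DESeq2 1.42.0 size factors, Audic-Claverie and edgeR's exact test were alternatives. Scripts (Python 3.11.15, R 4.3.3) were tested on simulated data.

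Members, 22 lists and rules were chosen with earlier results of these data known. Named genes are the 12 farthest on each side with over 3 tags everywhere, the 8 highest on each side, list members, up to 5 with 0 tags, and 3 on each side of each limit. Others were named after their values were seen. Symbols shared by several accessions touch 1 member above and 6 below. Promoters and gene names of tags were not analysed here. Values of a few list members are not reported here, and most members outside the lists and groups are not named.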

Additional observations from a re-analysis of the deposited data

How the results depend on the processing

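Without TMM 172 genes lay above and 251 below, of which 139 and 214 were shared with the 181 and 288 given in the report, and the median of all genes became 0.010. Without the genes over 1% of a library the counts were 149 and 341. Counts that moved by over 1.5 times were 174 below with at least 50 tags, 399 above and 524 below with no minimum, 57 and 97 with a 3-fold limit, 109 and 99 where the Audic-Claverie FDR had also to be at most 0.001 on both sides, 52 and 37 with edgeR's exact test at an assumed coefficient of variation of 0.2, and 306 and 667 by distance from the mean. No member changed sides under any of these. Of 67 mitotic genes considered, 31 lay above without TMM, 12 with the 3-fold limit and 11 by the exact test, and none lay below. Of 66 matrix genes, 17, 6 and 8 lay below, and of 13 macrophage markers 5, 1 and 0.

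The median of the B cell list turned to -0.0032 with DESeq2 size factors, to -0.059 without the genes over 1% and to -0.54 with no minimum. SLC34A2 turned to 0.27 where counts of at most 3 were raised to 3. With at least 50 copies, an alternative chosen after seeing the data, 996 distinct tags lay above and 1319 below. No paired analysis was possible because each time point has 1 library, and for the same reason no replicate could be left out. Low depth bears on 75 of 288 members below and 31 of 181 above, which had at most 3 tags in some library.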
